A study of Mus musculus with 2 samples.

Results

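Integrins are the heterodimeric receptors that hold cells to the matrix around them, and laminins are the trimeric proteins that make up much of the basement membrane. The genes described here are all those of GENCODE M21 whose symbol names an integrin alpha or beta subunit or a laminin chain. Membership was set by name and not by a cutoff on values, though earlier results of these data were already known. There were 37 of these genes among 55536 annotated genes: 18 integrin alpha, 8 integrin beta, 5 laminin alpha, 3 laminin beta and 3 laminin gamma genes. They were measured in heart RNA of B6CASTF1/J males aged 10 days, an F1 cross between the B6 laboratory strain and CAST, an inbred strain of wild origin. No genetic change or treatment is named in the labels. The study has 1 group of 2 libraries, replicate 1 and replicate 2, which carry separate biological replicate numbers and animal numbers but refer to a single donor entry. The spread given here is therefore the spread between these samples, part of which may be technical, and with 1 group there is no treated or mutant state to compare.

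Each library was made from 300 ng of total RNA with ribosomal RNA reduced and strand kept. Expected counts came to 38851514 for replicate 1 and 37907585 for replicate 2, of which the integrin and laminin genes held 156542 and 137017 counts (0.403% and 0.361%). All 6 cardiomyocyte markers were detected, with a summed level of 28701 and 26736 TPM (a transcript level corrected for length and sequencing depth). The samples did not match in all tissue components. The 5 adipocyte markers summed to 420 TPM in replicate 1 and 31.2 TPM in replicate 2, and the 5 atrial markers to 1504 and 269 TPM. All 10 were more than 1.5-fold higher in replicate 1. The 6 fibroblast markers summed to 1619 and 1028 TPM and the 5 mesothelial markers to 36.1 and 19.5 TPM. In scaled counts none of the 6 fibroblast markers was more than 1.5-fold apart, and all but Tcf21 were higher in replicate 1. TPM values as such ran higher in replicate 1, by a median log2 ratio of 0.21 over genes with a mean count of at least 50. Endothelial markers summed to 375 and 303 TPM and mural cell markers to 515 and 378 TPM, with all 6 of each detected, and skeletal muscle markers to 0.51 and 0.65 TPM, with none of 4 detected and Myh4 at 0. In bulk RNA, fewer cells of a type and less RNA per cell cannot be told apart.

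An integrin pairs 1 alpha with 1 beta subunit, and the alpha subunit mainly sets which ligand is bound while the short cytoplasmic tail of the beta subunit recruits talin and kindlin, which link it to actin. A laminin is a trimer of an alpha, a beta and a gamma chain, and its alpha chain carries the main sites for integrins and dystroglycan. Cardiac muscle cells are each wrapped in a basement membrane, to which they attach at costameres, and the endothelium of the capillaries between them rests on another. Beta1 integrin has a cytoplasmic splice form, beta1D, known from striated muscle, and the laminin receptors alpha3, alpha6 and alpha7 have alternative tails named A and B.

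Of the 37 genes, 23 were detected, meaning at 1 TPM or more in both libraries, and 14 were not. Among all 22028 protein-coding genes 52.4% were detected by the same rule. The level had a mean of 5 TPM or more for 15 genes, 7 integrin alpha, 2 integrin beta, 3 laminin alpha, 2 laminin beta and 1 laminin gamma gene. Together the 37 genes held 1157 TPM in replicate 1 and 965 TPM in replicate 2. Sorted by mean level in the first deposited quantification, 23 of the 36 neighbouring pairs had overlapping ranges over the samples, and 13 did not. There the first 3 places were separated, with Itgb1 above Lamc1 and Lamc1 above Lamb2. The range of Lamb1 overlapped that of Lamb2 above it and that of Lama2 below it. In the other deposited quantification Itga6, at 166 and 179 TPM, overlapped Lamc1, at 172 and 137 TPM. Lamb1 had a mean of 115 TPM there, above Lamb2 at 91.7 TPM.

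**Figure D1:**
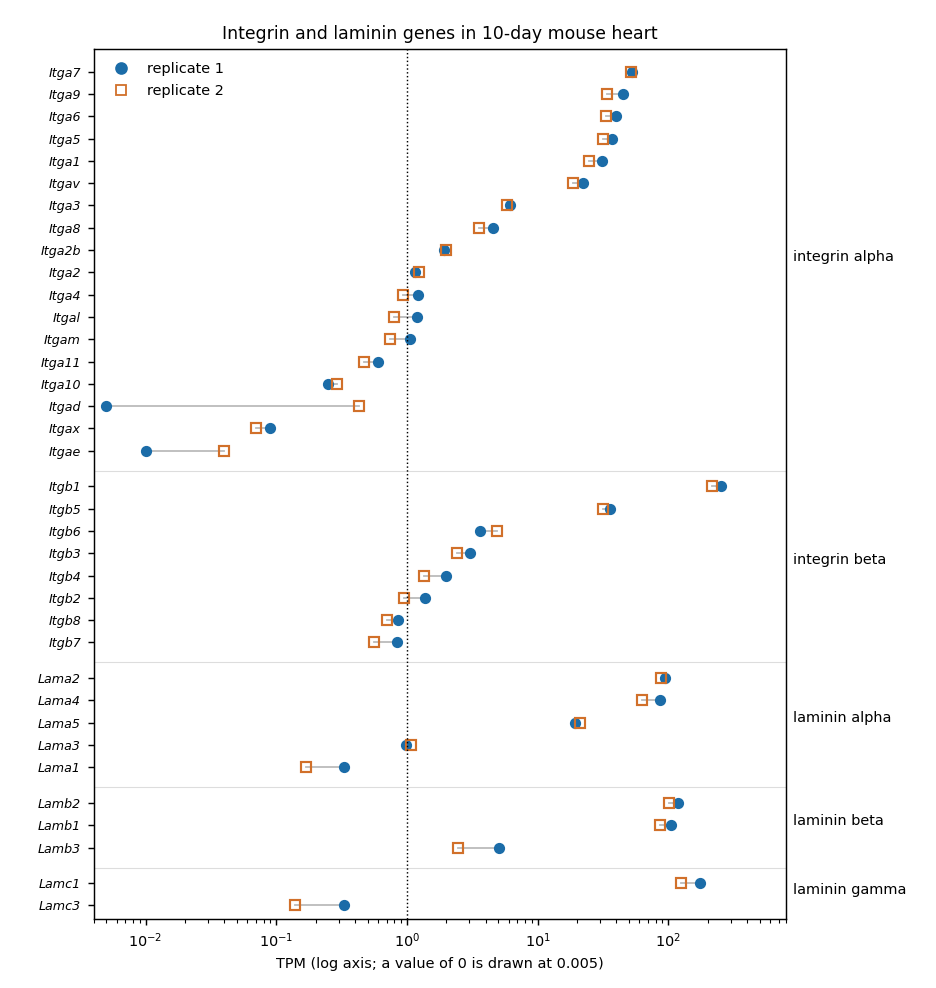
Level of 36 integrin and laminin genes in TPM on a log axis, by chain family and in falling order of mean level within it. Filled circles are replicate 1, open squares are replicate 2, and the dotted line is 1 TPM. Itgb1 lies highest at 253 and 217 TPM, and Itgad, drawn at the left edge for replicate 1, had 0 TPM there.

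The beta subunits were dominated by Itgb1 (chromosome 8, 128685654 to 128733200, plus strand, mm10), the partner of most matrix-binding alpha subunits. It had 253 TPM in replicate 1 and 217 TPM in replicate 2 (235 ± 25.0, SD, n = 2), from 23003 and 20100 counts. That was 84.2% and 83.6% of all beta subunit TPM. Itgb5, which pairs with alphaV to bind vitronectin, followed at 35.5 and 31.7 TPM, or 11.8% and 12.2%. The other 6 beta genes were all under 5 TPM. Itgb6, an epithelial partner of alphaV, had 3.60 and 4.86 TPM, Itgb3, the partner of alphaV and of platelet alphaIIb, had 3.04 and 2.40 TPM, and Itgb4, the partner of alpha6 in hemidesmosomes, had 2.00 and 1.36 TPM. The leukocyte subunits Itgb2 (1.38 and 0.95 TPM) and Itgb7 (0.84 and 0.56 TPM) and the alphaV partner Itgb8 (0.85 and 0.71 TPM) were under 1 TPM in at least 1 library. Within each library Itgb1 exceeded Itgb5 by a log2 ratio of TPM of 2.80 ± 0.04 and the sum of all the other beta genes by 2.38 ± 0.05, and Itgb5 exceeded Itgb3 by 3.59 ± 0.12.

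The tail of beta1 is where its forms differ, so the alternative ends are printed here from the GENCODE M21 transcripts (mm10, sense strand, 5′ to 3′). Lower case marks the 6 bases of the exon before, which both forms share, and capitals the coding bases of the alternative end up to and including the stop codon.
beta1D exon of Itgb1-204, chr8:128726983-128727063: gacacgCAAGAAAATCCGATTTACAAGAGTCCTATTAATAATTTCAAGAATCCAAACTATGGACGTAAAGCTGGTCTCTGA
beta1A end of Itgb1-201, chr8:128732023-128732088: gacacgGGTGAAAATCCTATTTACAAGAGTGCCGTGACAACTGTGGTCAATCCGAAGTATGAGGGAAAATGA
The beta1D exon has 81 bases, of which 75 are coding, and the coding part of the beta1A exon has 66. Laid side by side from their first base, 41 of 66 bases were identical (62.1%). In the annotation the beta1D exon belongs to Itgb1-204, a partial transcript of 4 exons and 711 bases, and the full-length Itgb1-201 of 16 exons and 3815 bases lacks it.

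The transcript with the beta1D exon stood at 55.9 TPM in replicate 1 and 55.4 TPM in replicate 2, and the beta1A transcript at 195 and 159 TPM. The deposited credibility bounds of the beta1D transcript were 50.01 to 59.4 TPM in replicate 1 and 50.1 to 58.9 TPM in replicate 2. Its share of these 2 transcripts was thus 22.3% and 25.8% (24.1% ± 2.52). In the other deposited quantification the transcripts stood at 81.7 and 83.1 TPM against 232 and 210 TPM, a share of 26.0% and 28.4% for beta1D. Beta1A held the larger share in both hearts and both quantifications. In expected counts, which are not divided by transcript length, the beta1D transcript held 4.97% of the sum. The share sets a partial transcript model against a full-length one, so it rests on how reads of the exons they share were divided.

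Among the alpha subunits no single gene prevailed in the first quantification. Itga7 (chromosome 10, 128933818 to 128958282), the laminin receptor of muscle, was highest with 52.4 TPM in replicate 1 and 52.0 TPM in replicate 2, or 21.3% and 24.6% of alpha subunit TPM. Itga9, which binds tenascin C and other ligands, had 44.9 and 34.2 TPM. Itga6, a laminin receptor of endothelium and epithelium, had 39.8 and 33.3 TPM, and the fibronectin receptor Itga5 had 37.3 and 31.8 TPM. In the first quantification Itga7 lay above the others without overlap, whereas the ranges of Itga9, Itga6 and Itga5 overlapped from one to the next. Next came Itga1, a collagen receptor, with 30.9 and 24.7 TPM, Itgav, the alphaV receptor for vitronectin and latent TGF-beta, with 22.4 and 18.8 TPM, and Itga3, a laminin receptor, with 6.11 and 5.85 TPM.

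Alpha subunits were also grouped by ligand, with shares from the first quantification. The other put Itga6 alone at 166 and 179 TPM, so the group shares do not carry over to it. The sums also count noncoding and retained-intron models, such as Itga6-203 and Itga1-206. The 3 laminin receptors (Itga3, Itga6, Itga7) held 40.0% of alpha subunit TPM in replicate 1 and 43.1% in replicate 2, and all 3 were detected. The 4 subunits that recognise the RGD motif (Itga5, Itga8, Itgav, Itga2b) held 26.9% and 26.6%, and all 4 were detected. Itga4 and Itga9 held 18.8% and 16.6%, nearly all of it from Itga9, since Itga4 was at 1.21 and 0.93 TPM. The 4 collagen receptors held 13.4% and 12.6%. Of these, Itga1 stood 5.46 ± 0.02 on the log2 scale above Itga11, which had 0.60 and 0.47 TPM. Itga2 had 1.15 and 1.23 TPM, and Itga10 had 0.25 and 0.29 TPM. Itga8, a receptor of nephronectin, had 4.55 and 3.59 TPM, and its log2 ratio over Itgav was -2.32 ± 0.06.

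None of the 5 alpha subunits of leukocyte integrins (Itgal, Itgam, Itgad, Itgax, Itgae) was detected in the first quantification, and together they held 0.952% and 0.984% of alpha subunit TPM. Itgal had 1.19 and 0.80 TPM and Itgam 1.05 and 0.74 TPM. Itgax and Itgae were under 0.1 TPM in both libraries, with 10 and 9 counts and with 1 and 5 counts. Itgad had 0 counts in replicate 1, which allows up to 3, and 6 in replicate 2. In the other quantification it stood at 0.978 TPM in replicate 1 and 0.897 TPM in replicate 2. It shares 70 exonic bases with Cox6a2, an abundant muscle gene on the opposite strand with 9844 and 9008 counts, and whether the counting used strand is not stated. The 6 macrophage markers, all detected, summed to 49.3 and 29.7 TPM and the 6 lymphocyte markers, none of them detected, to 3.50 and 2.71 TPM. Itga2b, the alphaIIb chain of platelets, had 1.92 and 1.99 TPM beside a sum of 19.9 and 17.5 TPM for the 6 platelet markers, of which 2 were detected.

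**Figure D2:**
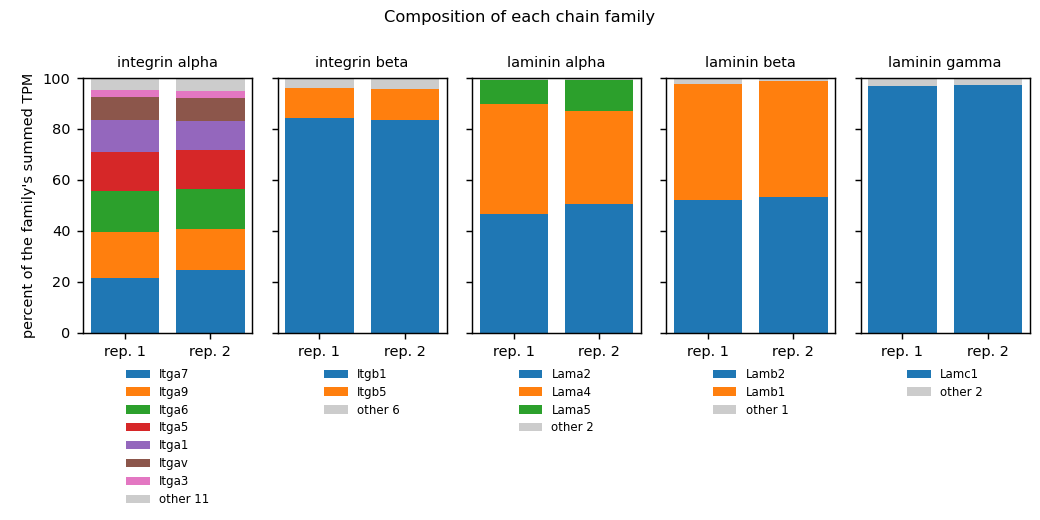
Share of each gene in the summed TPM of its chain family, as stacked bars in percent, for replicate 1 (left bar) and replicate 2 (right bar) of the 5 families. Grey is the sum of the remaining genes, and values are from the first quantification. Itgb1 takes 84.2% and 83.6% of the beta subunits and Lamc1 96.7% and 97.4% of the laminin gamma chains, while the alpha subunits are divided among 6 genes at 8.91% or more each.

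The alpha7, alpha6 and alpha3 subunits end in 1 of 2 tails, and the exons that give the A tails are printed to show how alike they begin. Capitals are the alternative exon, cut at the stop codon where it has one, and lower case is the constant sequence on either side, all from GENCODE M21 (mm10, sense strand).
alpha7A exon of Itga7-204, chr10:128956611-128956723, plus strand: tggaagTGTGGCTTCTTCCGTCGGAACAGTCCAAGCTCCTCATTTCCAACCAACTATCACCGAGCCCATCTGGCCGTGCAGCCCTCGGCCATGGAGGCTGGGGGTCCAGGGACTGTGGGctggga
alpha6A exon of Itga6-201, chr2:71853534-71853663, plus strand: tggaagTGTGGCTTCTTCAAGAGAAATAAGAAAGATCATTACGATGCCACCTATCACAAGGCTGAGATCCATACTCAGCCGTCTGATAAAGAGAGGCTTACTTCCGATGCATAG
alpha3A exon of Itga3-201, chr11:95046449-95046590, minus strand: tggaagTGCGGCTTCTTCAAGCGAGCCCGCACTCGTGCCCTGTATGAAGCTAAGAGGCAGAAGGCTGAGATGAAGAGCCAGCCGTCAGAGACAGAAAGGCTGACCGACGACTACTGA
All 3 follow the same 6 bases. The first 12 bases of the alpha7A and alpha6A exons were identical, and the alpha3A exon matched each of them at 11 of those 12. This start is partly shared with the B tails, which follow the same 6 bases. Against the B tail of the same gene, the A exon matched at 8 of the first 12 for alpha7, 10 for alpha6 and 9 for alpha3. The B tails matched each other at 6 to 10 of the 12. Over the whole stretch compared, counted from the first base and with that start included, 37 of 108 bases were identical between alpha7A and alpha6A (34.3%), 38 of 108 between alpha6A and alpha3A (35.2%) and 45 of 111 between alpha7A and alpha3A (40.5%).

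The A form was the larger share for alpha3 in both quantifications. Itga3-201, with the A exon, made up 86.3% in replicate 1 and 94.5% in replicate 2 of the sum with the B form Itga3-203, and 82.6% and 94.2% in the other quantification, though at only 4.36 and 5.03 TPM. For alpha6 the quantifications differed. Itga6-201 (A) held 67.3% and 80.9% of its sum with Itga6-202 (B) in the first and 41.3% and 51.1% in the other, so neither form can be called the larger. For alpha7 the B form led. The transcript with the A exon, Itga7-204, a partial model of 984 bases and 4 exons, held 21.4% and 25.1% of its sum with both full-length B transcripts, at 10.7 and 12.6 TPM, and 6.41% of the expected counts, which are not divided by length. In the other quantification it held 0.993% in replicate 1 and 0 in replicate 2, at 0.485 and 0 TPM, so the presence of alpha7A RNA depended on the quantification.

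Itga7 has a further choice in its extracellular part, between a pair of neighbouring exons that exclude each other and that change how alpha7 binds laminin isoforms. They are printed because both quantifications gave them like shares. Capitals mark the exon and lower case the constant flanks.
first exon of the pair, Itga7-202, chr10:128941445-128941576, plus strand: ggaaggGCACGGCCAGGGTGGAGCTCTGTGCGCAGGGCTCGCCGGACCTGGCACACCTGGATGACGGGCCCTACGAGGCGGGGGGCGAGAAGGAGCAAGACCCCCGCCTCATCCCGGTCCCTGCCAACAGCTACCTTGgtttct
second exon of the pair, Itga7-201, chr10:128941822-128941941, plus strand: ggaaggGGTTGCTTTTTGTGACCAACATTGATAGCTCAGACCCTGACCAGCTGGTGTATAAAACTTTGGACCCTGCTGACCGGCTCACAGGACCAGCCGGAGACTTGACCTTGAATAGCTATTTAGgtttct
The first has 132 bases with a GC content of 70.5%, and the second has 120 bases with 49.2%. Itga7-201, which carries the second exon, stood at 30.6 TPM in replicate 1 and 30.0 TPM in replicate 2, and Itga7-202 at 8.79 and 7.63 TPM. The second exon thus held 77.7% and 79.7% of the pair, and 77.1% and 78.6% in the other quantification. Both transcripts are full length and end in the B tail.

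Itgb5 also has forms that differ near the membrane. Itgb5-202, whose exon 14 has 167 bases, held 84.3% and 81.3% of its sum with Itgb5-201, against 51.4% and 42.7% in the other quantification.

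**Figure D3:**
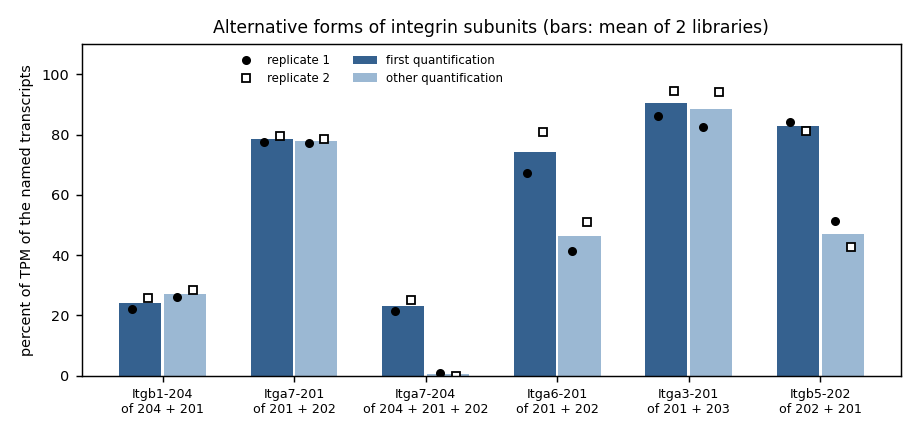
Share of the named transcript in the TPM of the transcripts compared, in percent, for 6 choices of integrin splice form. Dark bars are the mean of the first quantification and light bars that of the other, with replicate 1 as circles and replicate 2 as squares. Between the quantifications, both in TPM, the beta1D share is 24.1% and 27.2% and that of the second alpha7 exon 78.7% and 77.9%, while Itga7-204 has a mean of 23.2% in the first and 0.497% in the other.

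Laminin RNA was led by the gamma1 chain. Lamc1 (chromosome 1, 153218922 to 153332786, minus strand), the gamma chain of nearly all basement membrane laminins, had 175 TPM in replicate 1 and 125 TPM in replicate 2 (150 ± 35.5, SD, n = 2), from 32395 and 25892 counts. It held 96.7% and 97.4% of gamma chain TPM. Lamc3 had 0.33 and 0.14 TPM from 55 and 21 counts. Lamc1 exceeded Lamc3 by a log2 ratio of 8.85 ± 0.25.

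The beta chains came from 2 genes at similar levels. Lamb2 (chromosome 9, 108479736 to 108490530), the chain that is enriched at the neuromuscular synapse and in vessels, had 118 and 102 TPM, and Lamb1 (chromosome 12, 31265234 to 31329644), the chain of most early basement membranes, had 104 and 87.0 TPM. Their ranges overlapped over the samples, with a log2 ratio of Lamb1 over Lamb2 within a library of -0.21 ± 0.04. The order depended on the quantification, since the ratio was 0.33 in the other one. Lamb2-206, a 345-base fragment, had 33.4 and 26.9 TPM in the first quantification and 0 in both libraries of the other. Lamb3, the beta chain of laminin 332, was at 5.08 and 2.48 TPM, and the log2 ratio of Lamb2 over it was 4.91 ± 0.56.

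Among the laminin alpha chains, Lama2 (chromosome 10, 26980036 to 27619758, minus strand), the chain of the muscle basement membrane whose loss causes congenital muscular dystrophy, had 94.3 TPM in replicate 1 and 87.7 TPM in replicate 2. Lama4 (chromosome 10, 38965515 to 39110188), a chain of endothelial basement membranes, had 86.6 and 63.0 TPM, and Lama5, the other endothelial and epithelial chain, had 19.4 and 21.1 TPM. They held 46.8% and 50.7%, 42.9% and 36.4%, and 9.63% and 12.2% of alpha chain TPM. Lama2 lay above Lama4 by a log2 ratio of 0.30 ± 0.25 within a library, and by -0.11 in the other quantification, so their order was not fixed. Lama5 over Lama4 was -1.86 ± 0.41, with -2.15 in replicate 1 and -1.57 in replicate 2. Lama1, the chain of the early embryo, was at 0.33 and 0.17 TPM, 8.06 ± 0.40 on the log2 scale under Lama2, and Lama3, the chain of laminin 332, was at 0.99 and 1.08 TPM.

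Because a laminin trimer takes 1 chain of each kind, the family sums can be set side by side. Laminin alpha chains summed to 202 TPM in replicate 1 and 173 TPM in replicate 2, beta chains to 228 and 192 TPM, and gamma chains to 181 and 129 TPM. The log2 ratio of alpha over gamma was 0.29 ± 0.20 and that of beta over gamma 0.45 ± 0.17, so the sums lay within 2-fold of each other. With protein-coding transcripts only, alpha over gamma was -0.11. For integrins, alpha subunits summed to 246 and 211 TPM and beta subunits to 300 and 260 TPM, a log2 ratio of -0.29 ± 0.01 that was 0.20 in the other quantification. Over all 17 balances examined, 10 lay beyond 2-fold in the same direction in both hearts, and the other 7 did not. The balances were chosen with earlier results of these data known. Some set an abundant gene against a scarce gene, and some share a gene, so the count only describes this set. An exact sign-flip permutation test over 2 libraries cannot give a p below 0.5, so no balance was tested.

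At the level of transcripts, the 15 genes at 5 TPM or more had 93 annotated transcripts. One transcript held at least 50% of the gene's TPM in both libraries for 11 of them, against 65.1% of protein-coding genes at that level with several transcripts. Protein-coding transcripts held 87.6% of their TPM in replicate 1 and 88.3% in replicate 2, and retained introns 8.02% and 8.24%. Lamb1-201 held 95.3% and 91.2% of Lamb1. Itga5-201 held 92.2% and 89.0%, Itga9-201 held 88.3% and 93.5%, Lamc1-201 held 78.1% and 83.3%, Itgb1-201 held 77.3% and 73.2%, Lama4-201 held 71.5% and 72.1%, Itga3-201 held 71.2% and 86.0%, Lama5-201 held 61.5% and 62.9%, Lamb2-201 held 59.7% and 59.5%, Itgb5-202 held 58.9% and 60.2%, and Itga7-201 held 58.3% and 57.6%. These are the 11.

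The remaining 4 were Lama2, Itga1, Itgav and Itga6. Lama2-201 held 48.5% and 47.0%, beside a shorter protein-coding transcript, Lama2-208, at 16.3% and 16.2%. Itga1-201 held 49.6% and 47.8%, beside the retained-intron transcript Itga1-206 at 39.5% and 37.6%. Itgav-201 held 46.9% and 41.7%, and the short coding fragments Itgav-205 (22.9% and 27.5%) and Itgav-206 (24.0% and 25.0%) took much of the rest. For Itga6 a noncoding model, Itga6-203 of 2721 bases, held 39.4% and 41.4%, the coding Itga6-201 held 36.2% and 43.0%, and Itga6-202 held 17.6% and 10.2%. Further coding transcripts at 10% or more were Itga7-204 (20.4% and 24.2%), Itga7-202 (16.8% and 14.7%), Itgb1-204 (22.1% and 25.5%), Itgb5-207 (23.8% and 24.0%), Itgb5-201 (11.0% and 13.9%), Lamb2-206 (28.2% and 26.3%) and Lamc1-204 (12.6% and 11.3%).

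The other quantification gave the same leading transcript for 13 of the 15 genes, all but Itga6 and Itgb5. It put Itga6 at 166 TPM in replicate 1 and 179 TPM in replicate 2, of which 114 and 131 TPM fell on Itga6-205, a noncoding model of 443 bases that had 0.42 and 0.28 TPM in the first. Itga9 stood at 88.2 and 63.2 TPM, also above Itga7, which had 51.8 and 53.1 TPM there. Those 2 of the 15 genes were more than 1.5-fold higher in the other quantification in both libraries, against 16.8% of protein-coding genes at 5 TPM or more. The order of Itga7 against Itga6 and Itga9 was thus not settled by these files, and Itga7 over Itga6 had a log2 ratio of 0.52 ± 0.17 in the first quantification, -1.72 in the other and 1.30 with protein-coding transcripts of the first only. Lama5 ran the other way, at 14.0 and 17.2 TPM, all of it on Lama5-201.

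**Figure D4:**
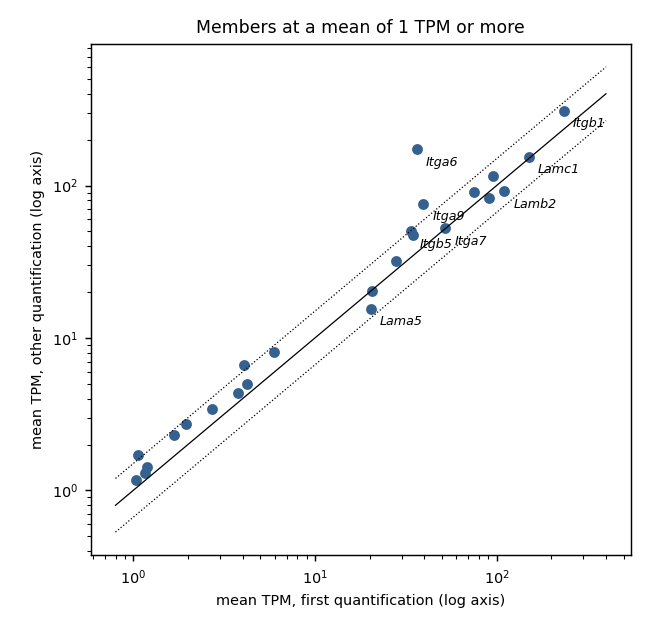
Mean TPM of replicate 1 and replicate 2 in the first quantification (horizontal, log axis) against the other (vertical, log axis), for genes shown at a mean of 1 TPM or more in the first. The solid line is equality and the dotted lines are 1.5-fold. Itga6 lies farthest from the line, at 36.5 TPM against 173 TPM, and Itga9 is next among the abundant genes at 39.6 TPM against 75.7 TPM.

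The samples were then compared with each other as the only contrast in the data. Counts were scaled by edgeR's TMM factors, the log2 ratio sets replicate 1 over replicate 2, and its exact 95% interval covers counting error only. With 1 library per animal there is no replicate check and no p-value. On this scale the median over the 13213 genes with a mean count of at least 50 was -0.01, whereas the ratio of their TPM had a median of 0.21, so TPM values tend to be higher in replicate 1. Of the 37 genes 30 reached that count, and their median was 0.10. More than 1.5-fold higher in replicate 1 were 2 genes, Lamb3 and Itgb4, against 3.14% of all genes measured, and 1, Itgb6, was more than 1.5-fold lower, against 3.13%. The interval of the log2 ratio lay above 0 for 13 genes, against 20.5% of all, and below 0 for 7, against 22.3%, and it took in 0 for the other 10. The typical spread between the samples, as edgeR's biological coefficient of variation over 16166 genes, was 0.147.

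The 3 genes beyond 1.5-fold are known from epithelia and had low levels here. The count of Lamb3 was 564 in replicate 1 and 293 in replicate 2, which is 1.74-fold higher in replicate 1 (log2 ratio 0.80, interval 0.60 to 1.01). Itgb4 had 339 and 191 counts, 1.61-fold higher (0.68, interval 0.43 to 0.95). Itgb6 ran opposite, with 403 and 572 counts (-0.65, interval -0.83 to -0.46), and was at -0.54 when counts were scaled by the total. Lama3, the alpha chain of the laminin that contains Lamb3, had 267 and 323 counts (-0.42, interval -0.66 to -0.18). Of the 5 mesothelial markers 4 were more than 1.5-fold higher in replicate 1, Wt1 excepted, among them Krt19 with 162 and 64 counts and Msln with 898 and 485 counts. None of the 5 was at 0. Of the Schwann cell markers, S100b had 135 and 17 counts and Mbp 373 and 105 counts. The part of these tissues in the Lamb3 and Itgb4 values was not tested. Within the extent of Lamb3, on the opposite strand and with no shared exonic base, lies G0s2, a gene of lipid storage, which had 499 and 239 counts (log2 ratio 0.92).

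The abundant genes differed by less. Lama4 had 11702 and 9088 counts, a log2 ratio of 0.22 (interval 0.18 to 0.26), and Lamc1 had 32395 and 25892 (0.18, interval 0.16 to 0.21). Lama5 was lower in replicate 1, with 4197 and 4955 counts (-0.38, interval -0.44 to -0.32), and Itga3 was lower with 764 and 843 (-0.28, interval -0.43 to -0.14). The muscle chains lay slightly under 0, with Itga7 at -0.17 and Lama2 at -0.12 (-0.07 and -0.01 when scaled by the total count). The cardiomyocyte markers had a median of -0.18, with all but Actc1 (0.05) under 0. The ratio of Itgb1 was 0.05, that of Lamb1 0.08, that of Itga9 0.09, that of Itga1 0.13, that of Itgav 0.17 and that of Itgb5 -0.13, while Itga5 at 0.05, Itga6 at 0.02 and Lamb2 at -0.01 had intervals that took in 0. The endothelial markers had a median of 0.07 and the fibroblast markers of 0.38. The part of these cell types, cardiomyocytes included, in the ratios was not tested. Scaling by the total count shifted the median of all genes by 0.11 and changed the split of intervals above and below 0 to 18 and 5, and the sign of Lamb2 and Itgb8 turned positive there, as that of Lamb2 did with DESeq2 size factors.

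**Figure D5:**
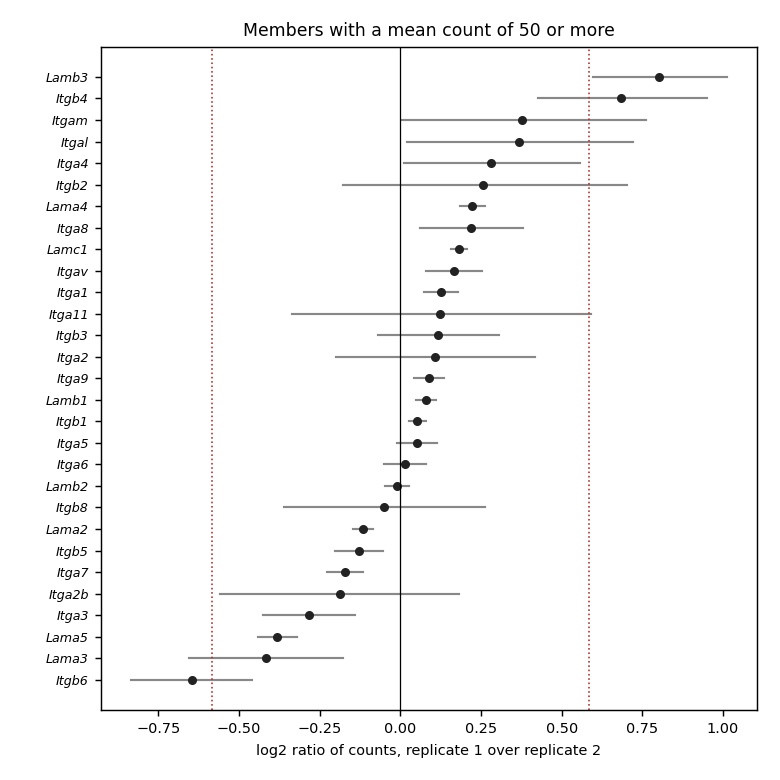
Log2 ratio of TMM-scaled counts, replicate 1 over replicate 2, for 29 genes with a mean count of at least 50, in falling order. Points are the ratio, horizontal bars its exact 95% interval for counting error, and the dotted lines 1.5-fold. Lamb3 at 0.80, Itgb4 at 0.68 and Itgb6 at -0.65 lie beyond the lines, and the other 26 genes shown lie between them.

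The partners of these genes inside and outside the cell were measured as lists. For comparison, 52.4% of all protein-coding genes were detected. Of genes with a mean count of at least 50, 3.14% were more than 1.5-fold higher in replicate 1 and 3.13% lower. At those shares, lists of this size would hold few or no genes beyond 1.5-fold. Of 22 cytoplasmic adaptors and kinases of integrins 21 were detected, with a summed level of 1307 TPM in replicate 1 and 1164 TPM in replicate 2. None was more than 1.5-fold different between the samples. The highest were the actin linker tensin 1 (Tns1) with 287 and 311 TPM, kindlin 2 (Fermt2), which activates beta integrins, with 130 and 120 TPM, and melusin (Itgb1bp2), a muscle protein that binds the beta1 tail, with 85.3 and 78.4 TPM. The epithelial kindlin 1 (Fermt1) had 0 counts in both, and the blood cell kindlin 3 (Fermt3) had 2.77 and 2.19 TPM.

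Of 14 other basement membrane components all 14 were detected, and none differed by more than 1.5-fold. Sparc, a collagen-binding glycoprotein, had 731 and 517 TPM, and the collagen IV chains Col4a1 and Col4a2 had 526 and 419 TPM and 291 and 230 TPM. A list of 5 other laminin receptors and receptor partners (Rpsa, Dag1, Bcam, Cd151 and Sgca) was detected in full. It was led by Rpsa, which is also a ribosomal protein, at 275 and 213 TPM. Dystroglycan (Dag1) followed at 165 and 139 TPM and the Lutheran glycoprotein Bcam at 125 and 107 TPM. Dystroglycan thus stood above every integrin alpha subunit on the same scale in the first quantification.

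Of 18 interstitial and cell-surface ligands of integrins, the latter being Vcam1, Icam1, Icam2 and Madcam1, 16 were detected, all but Spp1 and Madcam1. The fibrillar collagens led, with Col3a1 at 750 and 482 TPM, Col1a1 at 413 and 242 TPM and Col1a2 at 275 and 168 TPM. Their list had a median log2 ratio of 0.38, against -0.01 over all genes, and 2 of these leading genes are also among the fibroblast markers. Tenascin C (Tnc), a ligand of alpha9, was the 1 gene over 1.5-fold, with 1196 counts against 567 in replicate 2, a log2 ratio of 0.93 (interval 0.79 to 1.08), while Itga9 itself was at 0.09.

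Some of the 37 genes lie beside or across other genes. Itga2 and Itga1 lie 20995 bases apart on chromosome 13 with 1.19 and 27.8 TPM on average, and Itgam, Itgax and Itgad follow each other on chromosome 7 within gaps of 11.1 kb and 3.72 kb, all at a mean under 1 TPM. Itga1 shares 685 exonic bases with the same-strand gene model Gm49395, which had 195 and 177 counts, against 6490 and 5390 for Itga1, so a part of the count could belong to either. Pelo, a ribosome rescue factor, lies within Itga1 with no shared exonic base and had 11.1 and 8.70 TPM. Itga4 shares 1124 exonic bases with Cerkl on the opposite strand, which had 17 and 19 counts.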

How the data were processed

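Total RNA of 2 mouse heart libraries was measured in 1 group. Per the file headers and deposited notes, the authors worked on mm10 with GENCODE M21 and made a first quantification from transcriptome alignments, in gene and transcript tables, and another directly from reads. Their columns are laid out as RSEM and kallisto write them, but which programs, versions and strand setting were used is not given in the sources used here. Expected counts as deposited divide shared reads among genes and are not whole, and the other table's estimated counts are of the same kind. The deposited TPM values are scaled over all rows, spike-ins included, and FPKM, per the file headers, served as an alternative. The authors' credibility bounds of TPM are a signal column that was printed as deposited. The reference is B6-based, so reads that carry CAST alleles could be lost alike from both libraries.

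From these files TPM was summarised per library. Balances are log2 ratios of TPM within a library with a pseudocount of 0.1. Expected counts were rounded, scaled by TMM in edgeR 4.0.16 (R 4.3.3), given a prior count of 0.5 and compared as replicate 1 over replicate 2, with exact 95% Clopper-Pearson intervals over counting error only. The ratio and its interval were tried on simulated counts that held counting error only, with the scale factors known. The TMM scaling and the spread between animals were not tested by it. All genes entered, and rows that name no gene (3.89 and 3 counts, or 1.00e-05% and 7.91e-06% of the total) were left out. Size factors of DESeq2 1.42.0, total counts, FPKM, the other quantification, other thresholds and leaving out a library were alternatives. Exon sequences were read from GENCODE M21 transcripts, with python 3.11.15 and pandas 2.3.3. Named are genes at a mean of 5 TPM or more, those over 1.5-fold at a mean count of 50 or more, those in a balance, and the 3 highest or over 1.5-fold of each list. Other genes named with values, such as G0s2, Fermt1, Fermt3, S100b, Mbp, Krt19 and Msln, were chosen after their values were seen. One of the 37 genes enters the counts and sums but is not reported here. The genes, lists, balances and splice forms were chosen with earlier results of these data known.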

Additional observations from a re-analysis of the deposited data

How the results depend on the processing

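The number of genes more than 1.5-fold apart between the samples was 3, became 6 with no filter on counts, through Lamc3, Itgad and Itgae at under 50 counts, and was 0 at a fold of 2. It was 4 at a mean count of 10, 3 with DESeq2 size factors or the other quantification, and 2 with the total count. The number at 5 or more was 15, between 14 with FPKM and 20 with nuclear annotated genes only, where TPM was rescaled over fewer genes and all detected genes moved up, Itgb1 to a mean of 473 against 235 and Lamc1 to 301 against 150. The number detected was 23, between 20 at 2 TPM and 30 at 0.5 TPM. The number of balances beyond 2-fold was 10, between 9 with expected counts and 11 with the other quantification. The number with a leading transcript at 50% or more was 11, and 14 in the other quantification. Leaving out replicate 1 or replicate 2 gave 15 to 17 genes at 5 TPM, 24 to 27 detected, 10 balances and 11 leading transcripts. No value reversed a called direction. In balances not beyond 2-fold, the sign turned for Itga7 over Itga6 (-1.72), Lama2 over Lama4 (-0.11), Lamb1 over Lamb2 (0.33) and integrin alpha over beta (0.20) in the other quantification, for Lamb1 over Lamb2 (0.47), integrin alpha over beta (0.28) and laminin beta over gamma (-0.06) with expected counts and for laminin alpha over gamma with protein-coding transcripts only (-0.11), an alternative chosen after seeing the data. The causes were not tested. No ratio between the samples can be had with a library left out. No paired analysis was possible because there is 1 group.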
